A study of Mus musculus with 42 samples.

Results

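Neutrophils are short-lived white blood cells that leave the blood for inflamed tissue. They follow chemokines read by the receptor Cxcr2, and their making and survival depend on granulocyte colony-stimulating factor (Csf3) and its receptor Csf3r. Neutrophils carry their proteins in granules filled at successive steps of maturation, primary granules first in the bone marrow, then secondary granules and a gelatinase store. In the colon they are scarce at rest and gather beside damaged epithelium. The 10 genes described here are commonly read as signs of neutrophils, and their level was followed in RNA sequencing of Gli1-tdTomato+ stromal cells sorted from mouse colon. They are Ly6g and Cd177 (surface proteins), S100a8 and S100a9 (the subunits of calprotectin), Csf3r and Cxcr2 (receptors), Retnlg (a small secreted protein), Ngp (a secondary granule protein), and Mmp8 and Mmp9 (collagenase and gelatinase). The genes were chosen by name, with earlier results of the stromal comparisons known, out of 17645 genes named in the 4 stromal tables and 19232 named in all 12 tables. Their values in stromal cells are therefore a description, and counts of limma calls among them there are printed beside the background and support nothing. Tests of single members are given in goblet cells and in organoids, for those with a row.

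All mice carried Gli1-CreERT2, a tamoxifen-inducible recombinase made in Gli1+ cells, and were killed at day 30 after tamoxifen (20 mg/ml, 100 μl/day for 5 days), aged 2 to 4 months by the study's methods. For stromal cells they also carried Rosa26-tdTomato, a reporter switched on in the same cells. The controls (GWTT) had no floxed gene, the GS4T mice had Smad4 fl/fl (Smad4 carries TGFβ and BMP signals to the nucleus), and the GA3T mice had Alk3 fl/fl (Alk3, gene symbol Bmpr1a, is a BMP receptor). Goblet cells were sorted as Muc2-mCherry+ cells from the corresponding GWTM2, GS4M2 and GA3M2 mice, in which only the stroma was targeted. Proximal and distal colon were taken apart, with 2 libraries per group and 12 libraries of each sorted cell type. Wild-type colonic organoids, which are cultures of epithelium without stroma or blood cells, received 10 nM IL-1α and IL-1β, 10 nM IL-17A or neither for 12 or 72 hours, with 3 libraries per group. How many mice went into a library is not labelled, so a p-value measures the spread between these libraries only. By the methods, mesenchymal tissue was shaken in DTT and then EDTA, steps that loosen epithelium, before collagenase, and single tdTomato+ cells were sorted; a gate on a blood or epithelial surface marker is not named there.

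Depth was 14222902 to 23686940 reads on named genes in stromal cells, 15647603 to 20783127 in goblet cells and 14815170 to 17665812 in organoids. Values are normalised counts, that is, gene counts divided by 1 size factor per library within a table, and about 1 normalised count was 1 read. Both knockouts of a segment were set against the same 2 control libraries, which hold equal reads for at least 99.97% of genes in the paired tables, so the GS4T and GA3T values are given side by side and are not independent. Smad4 was 1604 and 1673 in GWTT and 705 and 835 in GS4T of the proximal colon (log2 fold change -1.09, limma adjusted p = 0.0101), and 1781 and 1703 against 680 and 1171 in the distal colon (-0.96, limma adjusted p = 0.0424). Bmpr1a was lower in each GA3T library than in each control, but the difference missed the threshold in the proximal (-0.61, limma adjusted p = 0.12) and distal colon (-0.69, limma adjusted p = 0.101). Gli1, the gene that drives the reporter, was 642 to 1864 in 10 of the 12 stromal libraries, and 23.9 in GS4T-Proximal 2 and 34.7 in GA3T-Proximal 2, which stand apart. RNA of other cell types was present in the stromal sort. Epcam, an epithelial adhesion protein, was at 52.7 in GWTT-Proximal 1 and 1061 in GWTT-Proximal 2, and Ptprc (CD45, the pan-leukocyte marker) was at 635 to 1430 in all 12 stromal libraries.

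S100a8 and S100a9 lie side by side on chromosome 3, at chr3:90668978-90670035 on the + strand and chr3:90692632-90695721 on the - strand of GRCm38. Ly6g lies at chr15:75155240-75159126 on the + strand, and Cd177 at chr7:24743983-24760311 on the - strand. These 4 genes are shown by the 250 bases before their RefSeq start (build GRCm38.p6), because S100a8 and S100a9 moved together in the stromal libraries while Ly6g and Cd177 were also read in cultured epithelium. Capitals mark GGAAGT or its reverse complement ACTTCC, the core bound by ETS factors such as PU.1.
S100a8 (chr3:90668821-90669070, + strand): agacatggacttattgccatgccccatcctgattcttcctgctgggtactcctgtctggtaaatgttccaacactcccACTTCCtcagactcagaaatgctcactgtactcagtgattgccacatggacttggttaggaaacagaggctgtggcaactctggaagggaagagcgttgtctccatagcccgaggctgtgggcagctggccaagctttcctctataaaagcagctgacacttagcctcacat
S100a9 (chr3:90695722-90695971, - strand): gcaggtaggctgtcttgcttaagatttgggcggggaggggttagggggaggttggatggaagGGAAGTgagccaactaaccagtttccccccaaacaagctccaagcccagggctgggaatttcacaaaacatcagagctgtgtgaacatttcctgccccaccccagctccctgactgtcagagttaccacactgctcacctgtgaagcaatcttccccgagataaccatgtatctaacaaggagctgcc
Ly6g (chr15:75155011-75155260, + strand): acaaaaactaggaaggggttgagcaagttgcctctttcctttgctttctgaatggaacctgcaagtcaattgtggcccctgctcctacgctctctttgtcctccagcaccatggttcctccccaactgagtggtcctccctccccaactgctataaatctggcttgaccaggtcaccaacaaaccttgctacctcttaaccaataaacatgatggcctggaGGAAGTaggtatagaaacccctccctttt
Cd177 (chr7:24760312-24760561, - strand): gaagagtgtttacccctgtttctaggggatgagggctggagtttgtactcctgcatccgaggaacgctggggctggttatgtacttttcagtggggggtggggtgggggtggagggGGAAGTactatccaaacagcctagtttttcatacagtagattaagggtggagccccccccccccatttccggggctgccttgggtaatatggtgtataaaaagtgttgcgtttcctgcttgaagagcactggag
The marked letters lie 172, 188, 29 and 134 bases before the start, in that order. A promoter entry was found for 9 of the 10 members, all but Mmp9. GGAAGT, searched on both strands, was present in 6 of the 9, against 20.0% of 27025 mouse promoters of the same length. TTGCNNAA, a form of the C/EBP site searched on both strands, was present in 5 of the 9, against 9.55% of all promoters. A form of the NF-κB site (GGG, 2 free bases, then TTTCC), searched on both strands, was in 0 of the 9 and in 1.4% of all. TATAAA on the gene strand was in 3 of the 9 (Ly6g, S100a8 and Cd177) and in 8.12% of all. No matches of different motifs overlapped. A match describes letters in a window and is not a site of binding.

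In the control stroma the members were few. The 10 genes together made 5.01 and 16.7 CPM (recovered reads scaled to an equal depth per library) in GWTT of the proximal colon and 17.2 and 18.7 in the distal colon. In GS4T the sum was 137 and 139 CPM in the proximal colon and 547 and 431 in the distal colon. GA3T held 55.6 and 129 in the proximal and 91.6 and 138 in the distal colon. Every knockout library therefore lay above every control library in the sum. The summed normalised count was higher by 3.67 on the log2 scale in GS4T proximal, 4.78 in GS4T distal, 3.11 in GA3T proximal and 2.70 in GA3T distal. Without GS4T-Proximal 2, the library with little Gli1, the first value was 3.63, and without GA3T-Proximal 2 the third was 2.39. In bulk RNA, more cells of a type and more RNA per cell cannot be told apart.

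**Figure D1:**
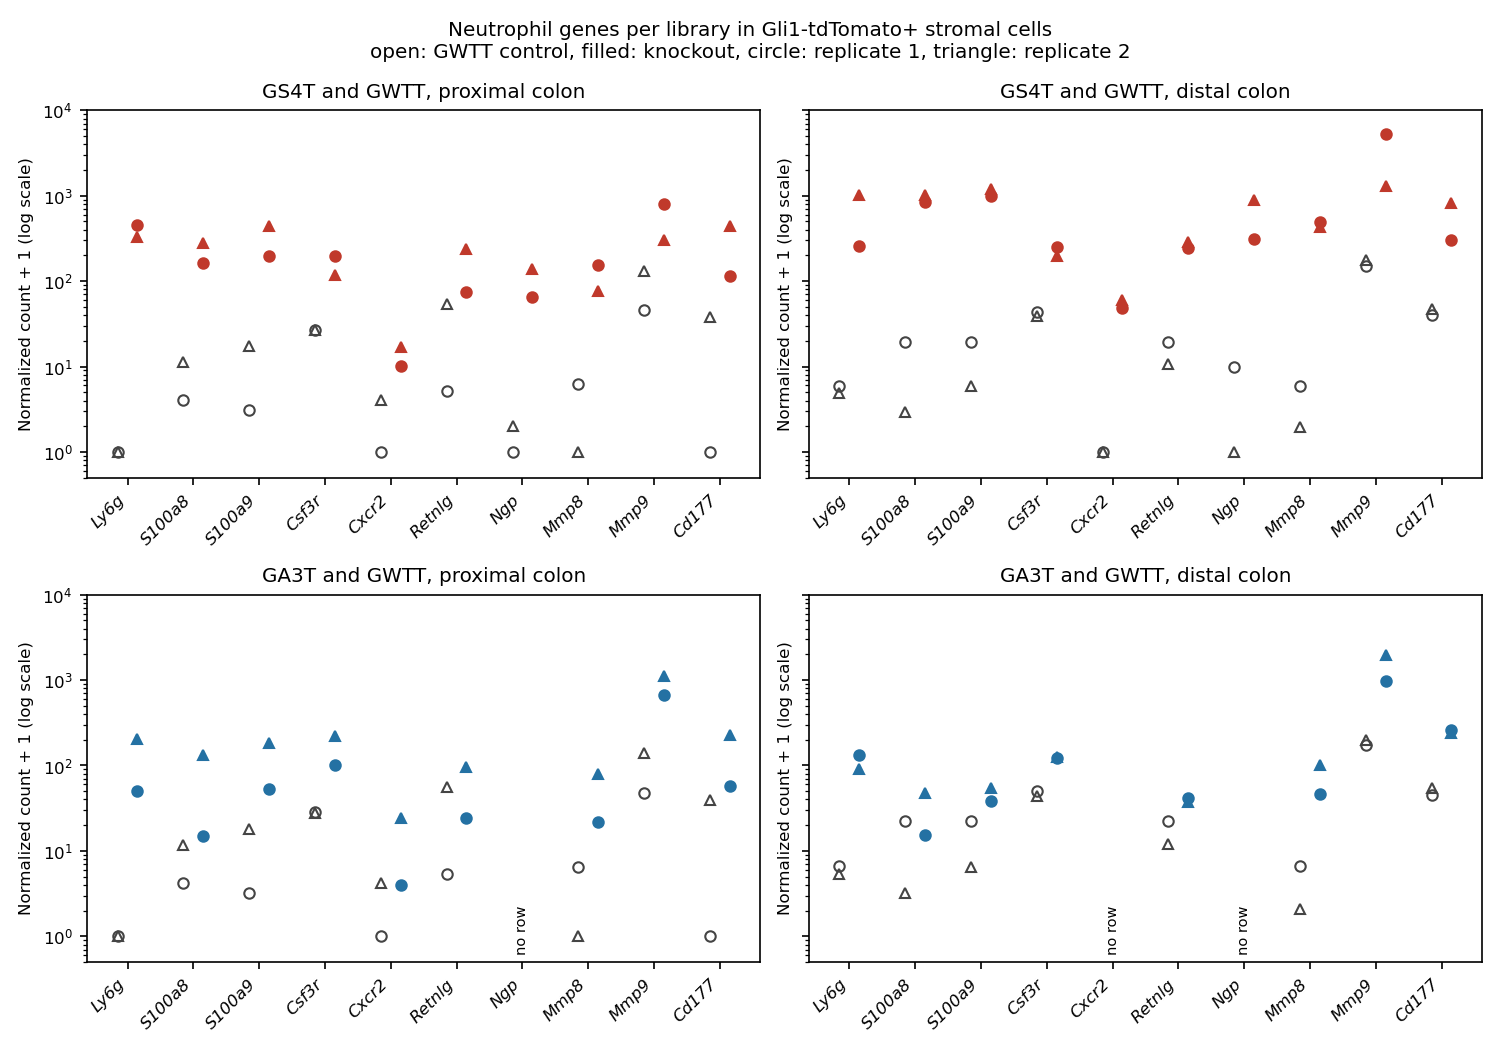
Normalised counts of each member (log scale, with values of 0 drawn at the bottom of the axis) in the stromal libraries of the 4 tables; each point is 1 library, and control and knockout libraries have separate colours. In both GS4T tables all 10 members lie above their controls in every library, while in the GA3T tables Cxcr2, Retnlg (proximal) and S100a8 (distal) overlap the controls.

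In the proximal colon of GS4T mice all 10 members were higher in both knockout libraries than in both controls, with folds from 5.48 to 197. limma called 6 of them (Ly6g, S100a8, S100a9, Csf3r, Ngp and Mmp8), where 5.25% of the 15319 genes tested were called higher, and 34.0% of those genes had groups apart in that direction. Since this contrast served to choose the members, nothing is read from these counts. A call means an adjusted p below 0.05 together with a change of 1 or more on the log2 scale in either direction. Genes with a mean normalised count under 10 were not tested, and 9 of the 10 members passed this filter. Leaving out GS4T-Proximal 1 left 0 members called, leaving out GS4T-Proximal 2 left 1, and leaving out GWTT-Proximal 2 gave 9.

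The calprotectin genes, whose proteins pair to bind zinc and calcium in the neutrophil cytosol, had the highest median levels per length among the members in GS4T. S100a8 was at 3.1 and 10.2 in GWTT and at 164 and 276 in GS4T of the proximal colon (33.0-fold). S100a9 was at 2.07 and 16.4 in GWTT and at 195 and 445 in GS4T (34.6-fold). Both knockout libraries stood far above both controls in each gene. The distal colon held S100a8 at 18.6 and 1.94 in GWTT and at 854 and 1029 in GS4T (91.8-fold). S100a9 was at 18.6 and 4.84 against 999 and 1186 (93.3-fold). The 2 genes kept a near-fixed proportion in GS4T, with 1.15 to 1.61 reads of S100a9 for each read of S100a8 over the 4 libraries, while in GA3T the proportion ran from 1.14 to 3.71.

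As CPM per kilobase of transcript, with CPM as above, S100a8 was at 1.13 to 10.8 in the 4 GA3T libraries and at 14.5 to 88.7 in the 4 of GS4T, which do not overlap. As normalised counts, S100a8 of GA3T was at 14.0 and 131 in the proximal colon, where GWTT held 3.26 and 10.8 in the same table. In the distal colon S100a8 of GA3T was at 14.3 and 46.8, where GWTT held 21.2 and 2.2. The distal groups overlapped, since 1 control lay above 1 knockout library. By the same measure S100a9 of GA3T was at 52.1 and 183 against 2.18 and 17.2 in GWTT of the proximal colon (12.1-fold). The distal values were 37.6 and 53.2 against 21.2 and 5.51 (3.40-fold), with no overlap in either segment. The difference between GS4T and GA3T was not tested, since their tables were normalised apart and share controls.

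Ly6g encodes the surface antigen that antibodies use to mark mouse neutrophils. It had 0 reads in both GWTT libraries of the proximal colon and was at 452 and 331 in GS4T, at least 127-fold higher against a floor of 3 reads per library, which covers counting error only. In the same segment GA3T held 49.1 and 205, at least 39.1-fold higher. In the distal colon Ly6g was at 4.89 and 3.87 in GWTT and at 255 and 1012 in GS4T (145-fold), and in the table of GA3T at 5.58 and 4.41 against 132 and 89.3 (22.1-fold). The groups did not overlap in any of the 4 comparisons, and GS4T-Distal 2 was the highest library. Of the 50-base stretches of Ly6g transcripts 0.448% occur unchanged in another annotated gene (Ly6i and Gm28116). Near matches were not counted, and whether reads of a relative were counted as Ly6g was not tested.

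Cd177, a surface protein that binds proteinase 3 on neutrophils, was at 0 and 36.9 in GWTT of the proximal colon and at 114 and 436 in GS4T (14.9-fold). The distal values were 39.1 and 46.5 against 303 and 824 (13.2-fold). The lower and the higher GS4T library differed several-fold in the proximal colon. GA3T held 56.1 and 225 of Cd177 in the proximal colon (7.24-fold) and 262 and 241 in the distal colon (5.17-fold), and no group overlapped its controls. Of the 50-base stretches of Cd177 transcripts 5.51% also occur in BC049730 or Gm4763, so a part of its reads is uncertain.

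Per length of transcript the receptors had the lowest medians of the 10 members in GS4T. Csf3r, through which granulocyte colony-stimulating factor acts, was at 25.8 and 25.6 in GWTT and 197 and 117 in GS4T of the proximal colon (6.10-fold), and at 43.0 and 37.8 against 252 and 198 in the distal colon (5.57-fold). GA3T held 100 and 221 of Csf3r in the proximal colon (5.93-fold) and 120 and 123 in the distal colon (2.65-fold). These groups were apart in all 4 comparisons. Csf3r was read in every control library, and 10.5% of its 50-base stretches occur in other genes. Cxcr2, the receptor for the chemokines Cxcl1, Cxcl2 and Cxcl5, was at 0 and 3.07 in GWTT and at 9.22 and 15.9 in GS4T of the proximal colon. The ratio of these few reads was 8.19, with a 95% counting interval of 2.51 to 42.3. Cxcr2 of the distal colon had no read in either control and was at 46.9 and 59.9 in GS4T, at least 18.3-fold higher. In GA3T of the proximal colon it was at 3.01 and 23.1 against 0 and 3.23, which overlap, and in the distal table of GA3T it has no row.

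Ngp and Mmp8 are stored in the granules filled late in the marrow, and both were almost unread in control stroma. Ngp was at 0 and 1.02 in GWTT and at 63.6 and 139 in GS4T of the proximal colon, a ratio of 197 with a counting interval of 35.0 to 7830. Distal Ngp was at 8.8 and 0 against 307 and 892 (136-fold). It has no row in either table of GA3T. Mmp8, neutrophil collagenase, was at 5.17 and 0 against 154 and 75.8 in GS4T of the proximal colon (44.4-fold) and at 4.89 and 0.968 against 488 and 424 in the distal colon (156-fold). In GA3T it was at 21.0 and 77.7 in the proximal (18.2-fold) and 45.8 and 99.9 in the distal colon (21.8-fold). All of these groups were apart.

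Mmp9, the gelatinase of neutrophils that macrophages also make, had the highest counts of the 10 in most libraries. It was at 44.5 and 131 in GWTT and 809 and 304 in GS4T of the proximal colon (6.34-fold), and at 151 and 174 against 5209 and 1286 in the distal colon (20.0-fold). In GA3T it was at 675 and 1107 in the proximal (9.65-fold) and 978 and 1974 in the distal colon (7.98-fold). All groups were apart, and 1 GS4T library of the distal colon held the most. Retnlg, a resistin-like protein of neutrophils, was at 4.14 and 52.3 in GWTT and 72.9 and 236 in GS4T of the proximal colon (5.48-fold), with the lower knockout library close to the higher control. Distal Retnlg was at 18.6 and 9.68 against 246 and 283 (18.7-fold). In GA3T it was at 23.0 and 94.2 in the proximal colon, overlapping its controls at 4.35 and 54.9, and at 40.6 and 36.1 in the distal colon (2.38-fold) without overlap.

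**Figure D2:**
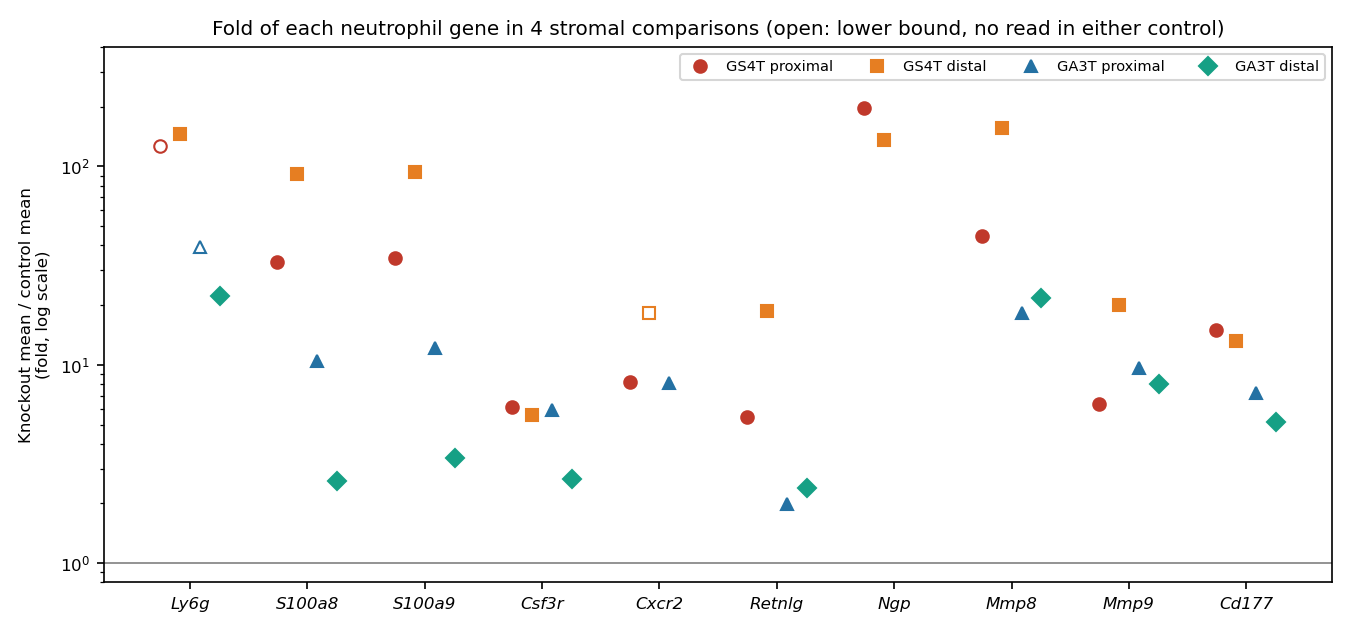
Fold of the knockout mean over the control mean (log scale) for each member in the 4 stromal comparisons, 1 marker per comparison; open markers are lower bounds where neither control had a read, and a missing marker means no row. Folds reach 197 in GS4T proximal and 156 in GS4T distal, and end at 18.2 in GA3T proximal and 22.1 in GA3T distal, apart from the bound for Ly6g.

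In the distal colon of GS4T mice all 10 members passed the filter, were called by limma and had groups apart, beside 7.88% of genes called higher and 34.4% apart and higher among all genes tested. In GA3T proximal 9 members have a row, 0 were called by limma beside 0.345% of all genes, and 7 were apart and higher beside 28.8%. In GA3T distal 8 have a row, 0 were called beside 0.0%, and 7 were apart and higher beside 27.5%. limma called 55 genes in all in GA3T proximal and 0 in GA3T distal, where 2885 genes had an unadjusted p under 0.05. DESeq2 on the recovered reads called 5 members in each GA3T table and edgeR called 0. The shares above are those of limma. DESeq2 called far more genes over all in both GA3T comparisons, as counted in the last section, so its 5 members have another background. In GA3T distal the sum of the members was 2.70 on the log2 scale, and 1.77 without Mmp9, Ly6g and Cd177.

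Per length of transcript, the order of the members in GS4T began with S100a9, at a median of 83.3 CPM per kilobase over the 4 libraries (22.9 to 136). S100a8 followed with a median of 49.2 (14.5 to 88.7), then Ly6g with 25.0 (16.5 to 64.3), Retnlg with 24.3 and Mmp9 with 17.9 (5.02 to 89.8). The ranges of these neighbours overlap, so their order is not fixed. Ngp (11.0), Cd177 (7.74), Mmp8 (7.18), Csf3r (3.33) and Cxcr2 (0.623) came lower by the same measure. In GA3T Mmp9 led with a median of 16.7 (10.7 to 28.9), before Ly6g with 6.38 (2.91 to 12.4) and S100a9 with 5.43 (4.04 to 20.0). The control medians were at most 2.41, that of Mmp9.

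Other neutrophil genes were split by the granule they belong to. Of 4 genes of primary granules, Elane and Ctsg have no row in any stromal table, Mpo (myeloperoxidase) was at 0 to 18.3, and Prtn3 (proteinase 3) was at 29.4 to 90.2 over the stromal libraries. limma called neither gene in any comparison, and the log2 fold change of Prtn3 was 0.40, -0.71, 0.39 and -0.39 in GS4T proximal, GS4T distal, GA3T proximal and GA3T distal. Of 6 genes of secondary granules, 4 were tested and 2 rose in GS4T proximal, 6 of 6 rose in GS4T distal, 1 of 3 rose in GA3T proximal and 0 of 3 in GA3T distal. Lcn2 (lipocalin 2, an iron scavenger that epithelium also makes) was at 8.27 and 9.22 in GWTT and 620 and 526 in GS4T proximal (log2 fold change 5.88, limma adjusted p = 0.00352). Chil3, a chitinase-like protein also made by macrophages, was at 3.1 and 2.05 against 996 and 1720 (8.53, limma adjusted p = 0.00352) in the same libraries. In GS4T distal Ltf (lactoferrin) was higher by 5.62 on the log2 scale (limma adjusted p = 0.00274) and Camp (cathelicidin) by 3.92 (limma adjusted p = 0.0338). Lcn2 was the gene called in GA3T proximal (5.62, limma adjusted p = 0.0489).

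Of 17 genes of mature neutrophils, 13 were tested and 7 rose in GS4T proximal, 14 were tested and 11 rose in GS4T distal, and 0 of 9 were called in each GA3T table. Trem1, an amplifying receptor of myeloid cells, was higher by 5.65 (limma adjusted p = 0.0177) in GS4T proximal and by 5.35 (limma adjusted p = 0.0441) in GS4T distal. Clec4e, a receptor for microbial glycolipids, was higher by 4.43 (limma adjusted p = 0.00606) and 3.14 (limma adjusted p = 0.00883). The list's median log2 fold change was 2.90, 3.67, 2.17 and 1.5 in the order above, where the median of all genes tested was 0.00 to 0.02. These lists were written with earlier results of the data known, so their counts are a description.

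**Figure D3:**
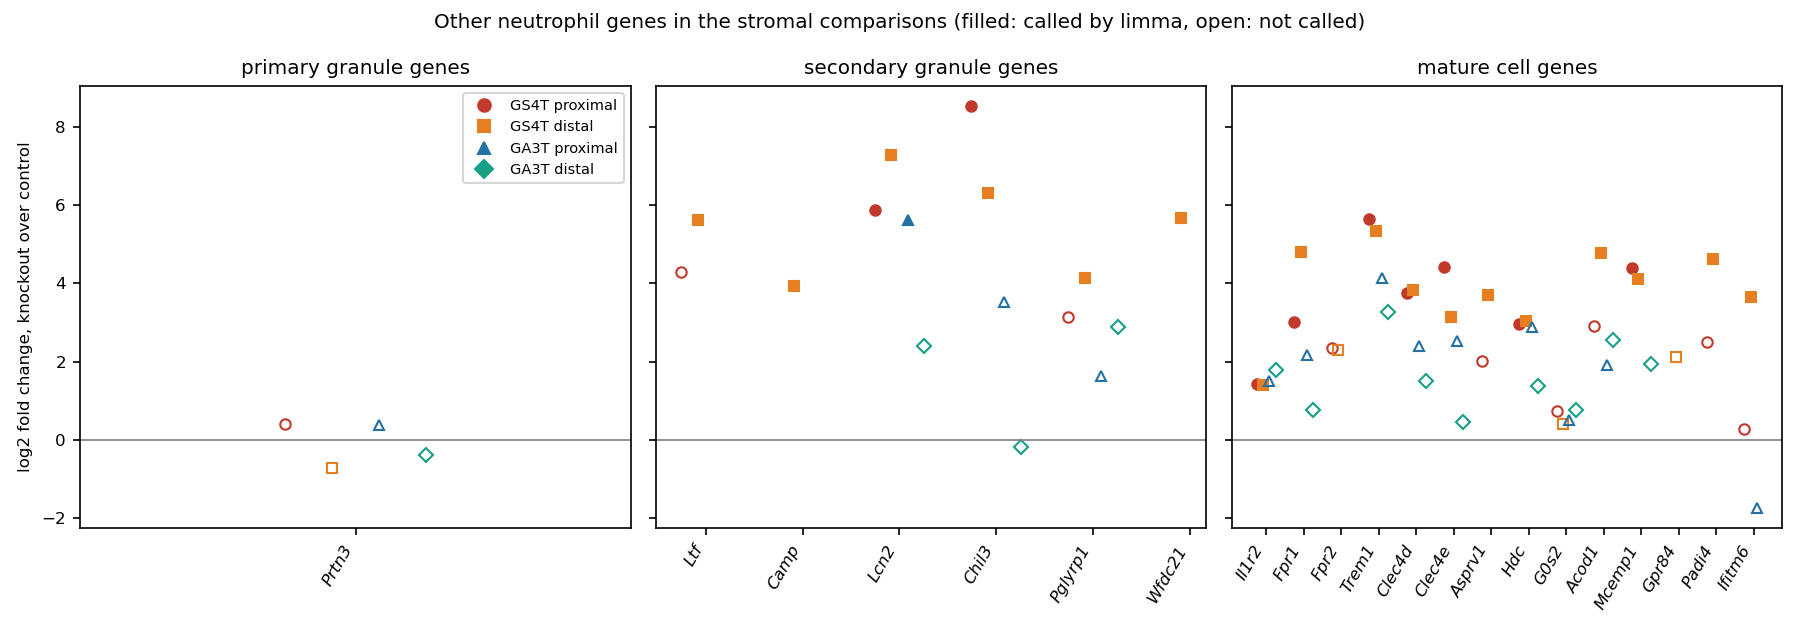
limma log2 fold change (knockout over control) of other neutrophil genes that passed the filter, in 3 panels for primary granule, secondary granule and mature cell genes; the marker shape gives the comparison, filled markers were called and open ones were not. Prtn3 lies near 0 in all 4 comparisons (-0.71 to 0.40), while all 6 secondary granule genes are called in GS4T distal.

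The signals that draw neutrophils and keep them alive were measured in the same libraries. Of 10 such genes, limma called 6 higher in GS4T proximal (Cxcl2, Cxcl3, Cxcl5, Csf3, Il1a and Il1b), 7 of 8 tested in GS4T distal (the same 6 and Ppbp), 1 of 10 in GA3T proximal (Il1b) and 0 of 9 in GA3T distal. Cxcl5, a ligand of Cxcr2, was at 15.5 and 68.7 in GWTT and 812 and 673 in GS4T proximal (log2 fold change 4.45, limma adjusted p = 0.0188), and at 217 and 183 against 3819 and 4391 in GS4T distal (4.35, limma adjusted p = 0.000355). Csf3, the growth factor read by Csf3r, was at 4.89 and 16.5 against 1129 and 1552 in GS4T distal (7.03, limma adjusted p = 0.00156). Cxcl1, another Cxcr2 ligand, was 3818 and 3428 against 1633 and 2661 in GS4T proximal (-0.79, limma adjusted p = 0.0867) and overlapped in GS4T distal. Il1a, an alarm cytokine, was at 16.5 and 8.2 against 776 and 366 in GS4T proximal (5.39, limma adjusted p = 0.00769). Il1b was higher by 3.57 (limma adjusted p = 0.0065) in GS4T proximal and by 2.60 (limma adjusted p = 0.0496) in GA3T proximal. Il17a was at 8.27 and 3.07 against 22.1 and 52.8 in GS4T proximal (2.52, limma adjusted p = 0.0864), and at 8.92 and 2.2 against 14.3 and 131 in GA3T distal (2.99, limma adjusted p = 0.279). limma called Il17a in no stromal comparison, and its values in GS4T distal and GA3T proximal are not given here.

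Like the members, the sums of epithelial and macrophage markers were higher in each knockout library than in each control of its segment. Within a group they did not always follow the members. In GA3T distal the members summed to 1630 and 2664, while the epithelial sum was 20363 and 8990 and the macrophage sum 21061 and 16940. The 8 epithelial genes summed to 403 and 9478 in GWTT of the proximal colon, to 22507 and 29563 in GS4T and, in its own table, to 10233 and 15030 in GA3T. The controls of that table held 424 and 9966, so GA3T-Proximal 1 lay only slightly above GWTT-Proximal 2. In the distal colon the epithelial genes summed to 1156 and 3169 in GWTT and 12527 and 25013 in GS4T. In the table of GA3T they summed to 1319 and 3607 in GWTT and 20363 and 8990 in GA3T. limma called 1 of 8 epithelial genes higher in GS4T proximal (Krt18), 8 of 8 in GS4T distal and 0 of 8 in each GA3T table. Each knockout library thus held more epithelial RNA than each control of its segment. GWTT-Proximal 2, the control with the most members in that segment, was also the one with the most epithelial RNA. The distal controls went the other way. There GWTT-Distal 1 held more of the members than GWTT-Distal 2 (307 against 280) and less epithelial RNA (1156 against 3169). The 12 macrophage genes summed to 4129 and 6093 in GWTT proximal against 29676 and 17731 in GS4T, and to 13121 and 11358 in GWTT distal against 38334 and 22488 in GS4T. limma called 7 of 12 higher in GS4T proximal (Lyz2, Cd14, Cd68, Csf1r, C1qa, C1qb and C1qc), and 6 higher and 1 lower (Ccr2) in GS4T distal. In GA3T 0 of 12 were called in either segment, though the macrophage sum was also above every control, at 16026 and 28309 against 4344 and 6406 in the proximal and at 21061 and 16940 against 14969 and 12926 in the distal colon.

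Of 10 leukocyte genes, 5 rose in GS4T proximal and 4 in GS4T distal, and 0 were called in GA3T. Itgam, the integrin chain of myeloid cells, was higher by 2.67 (limma adjusted p = 0.0276) in GS4T proximal and by 2.44 (limma adjusted p = 0.00484) in GS4T distal. Ptprc, found on all white blood cells, was 1029 and 1066 against 856 and 808 in GS4T proximal (-0.33, limma adjusted p = 0.0899) and 722 and 894 against 992 and 635 in GS4T distal (-0.02, limma adjusted p = 0.967). Of the B and plasma cell genes 1 of 4 tested fell in GS4T proximal (Jchain, the joining chain of secreted antibodies) and 4 of 6 in GS4T distal. Of the eosinophil genes Prg2 fell in both GS4T tables, and Epx has no row in any stromal table. Of the T cell genes 1 of 6 tested fell in GS4T proximal (Cd8a). The part of epithelial, macrophage and other white blood cell RNA in the values of the members was not tested. The 10 stromal genes, led by collagens, summed to 673310 to 1115885 in these libraries. That is a small part of their 14222902 to 23686940 reads on named genes.

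**Figure D4:**
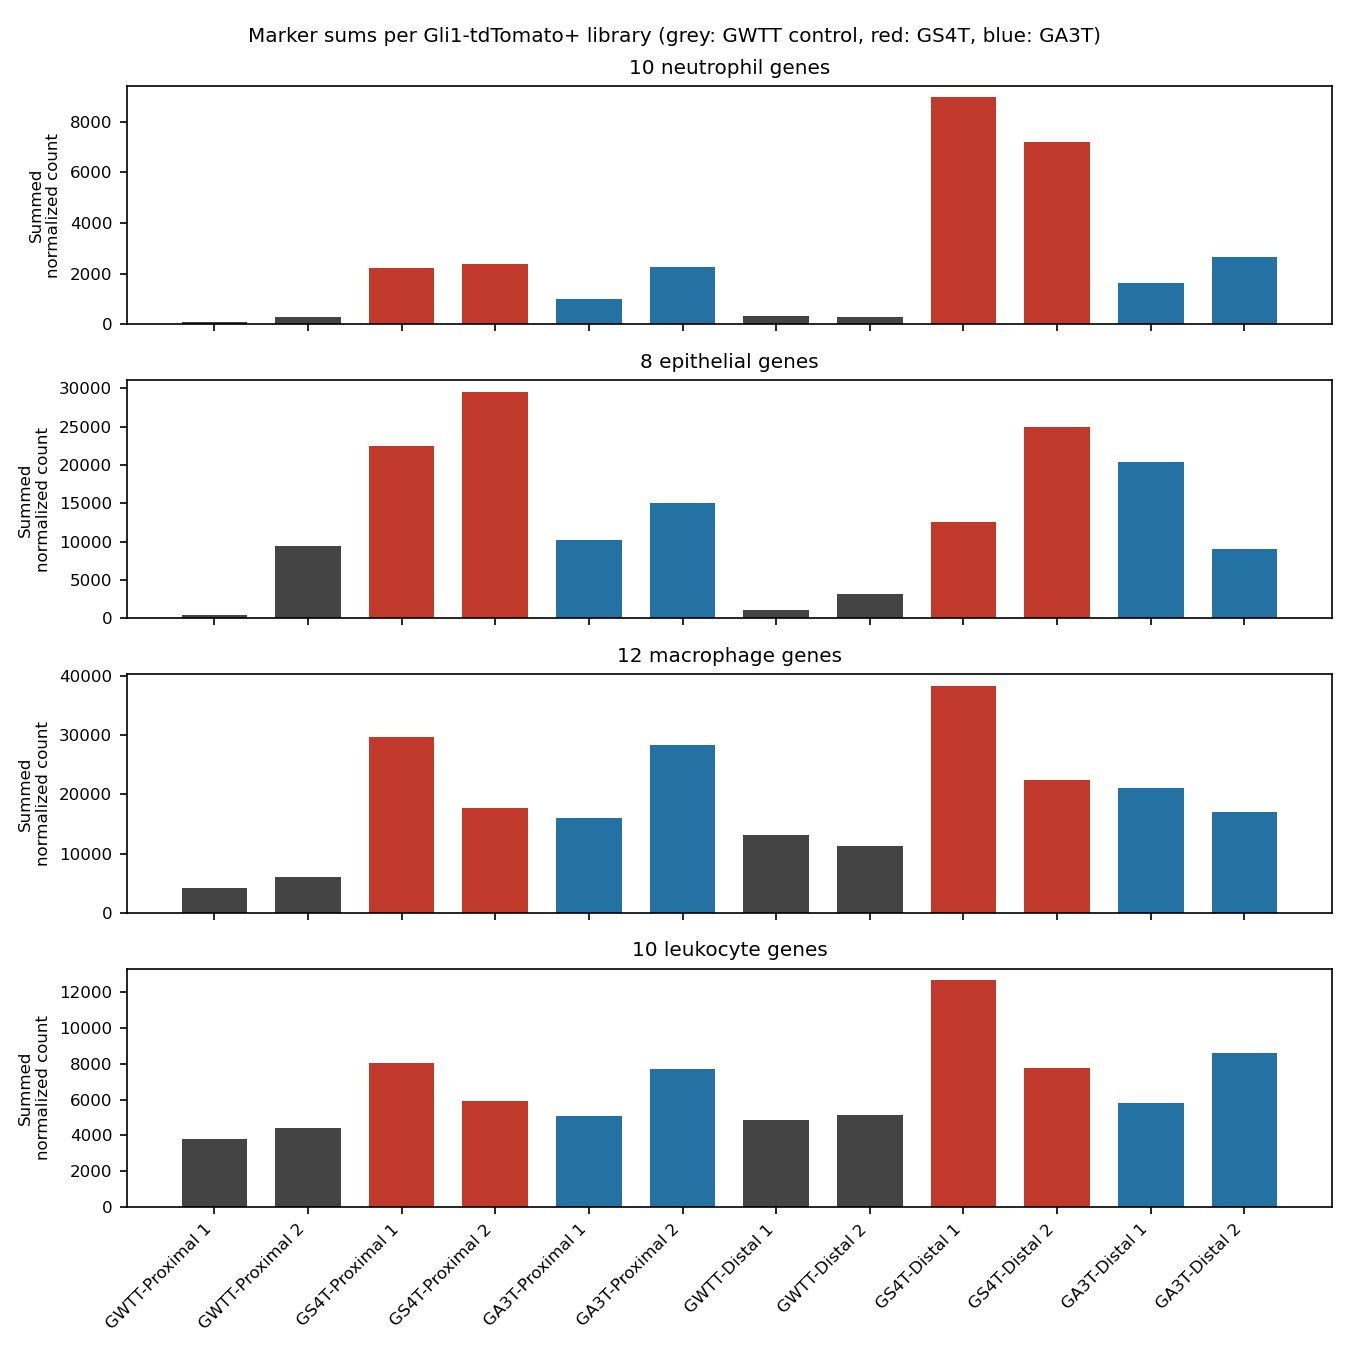
Summed normalised counts per stromal library of the 10 neutrophil genes, 8 epithelial genes, 12 macrophage genes and 10 leukocyte genes, as bars from 0, with controls grey, GS4T red and GA3T blue; controls are drawn from the GS4T tables and GA3T from its own tables, which have slightly other size factors. The sums of the neutrophil genes are highest in the 2 GS4T libraries of the distal colon (8960 and 7195), and the epithelial sum of GWTT-Proximal 2 (9478) stands far above that of GWTT-Proximal 1 (403).

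Over the 12 stromal libraries, the genes whose level in CPM followed the summed members most closely were found among 14409 genes by the root mean square difference of centred log2 values. Among the closest were Clca3b (0.51), Dio2 (0.53), Frzb (0.57), Il1rn (0.58), Lama3 (0.58), Slc7a11 (0.60), Cxcl14 (0.62), Il1a (0.64) and Stc1 (0.64). Il1rn is the receptor antagonist of IL-1, Dio2 activates thyroid hormone, and Frzb is a secreted Wnt-binding protein. The 12 libraries differ in genotype, segment and the epithelial RNA above, any of which the genes may follow, and no meaning is attached to the likeness.

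The goblet tables are other libraries than those of the stromal contrasts, and few members have a row there. The members were chosen with earlier results of the series known, so these tests are not wholly apart from the choice. In GS4M2 the rows were Ly6g and Cd177 in the proximal colon and S100a8 as well in the distal colon. In GA3M2 they were Ly6g, Cd177, S100a8 and S100a9 in both segments. limma called 0 members in each of the 4 goblet comparisons, beside 0.174% of all genes called higher in GS4M2 proximal, 0.0% in GS4M2 distal, 0.0375% in GA3M2 proximal and 0.0% in GA3M2 distal. The number of genes with an unadjusted p under 0.05 was 2208, 1389, 2039 and 1537 in the same order.

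Ly6g was at 18.0 and 6.48 in GWTM2 and 97.7 and 227 in GS4M2 of the proximal colon (log2 fold change 3.65 ± 0.60 SE, limma adjusted p = 0.0814). In GA3M2 of that segment it was at 338 and 1551, against 19.2 and 6.85 in the controls (5.85 ± 0.79, limma adjusted p = 0.0862). In the distal colon Ly6g was at 130 and 144 in GWTM2 and 246 and 557 in GS4M2 (1.43 ± 0.41, limma adjusted p = 0.412), and in the other table at 125 and 139 against 1203 and 1965 in GA3M2 (3.54 ± 0.27, limma adjusted p = 0.121). Every knockout library lay above every control, and yet the adjusted p missed the threshold with 2 libraries per group. DESeq2 on the recovered reads called Ly6g in all 4 goblet comparisons, and edgeR called it in 0.

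Cd177 was abundant in goblet cells whatever the genotype. It was at 32565 and 19236 in GWTM2 and 19726 and 19743 in GS4M2 of the proximal colon (log2 fold change -0.34, limma adjusted p = 0.533). Its distal values were 55476 and 17405 against 17535 and 16890 (-0.85, limma adjusted p = 0.587). In GA3M2 it was at 59386 and 25864 in the proximal (0.56, limma adjusted p = 0.575) and 42398 and 25184 in the distal colon (0.13, limma adjusted p = 0.949). The groups overlapped in each comparison. S100a8 had no read in either GWTM2 library of the proximal colon and was at 15.1 and 10.1 in GA3M2, below the filter. It was at 10.6 and 0 in the distal controls and at 33.3 and 44.1 in GA3M2 (3.53, limma adjusted p = 0.391), and at 11.0 and 0 against 11.4 and 27.6 in GS4M2 (2.44, limma adjusted p = 0.545). S100a9 was at 17.3 and 0 against 19.6 and 39.3 in GA3M2 distal (2.75, limma adjusted p = 0.518).

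Genes of white blood cells were also read in the goblet sort. The 10 leukocyte genes, as far as they have a row, summed to 328 to 732 in the goblet libraries and the 12 macrophage genes to 1330 to 2966. In organoid controls, cultures without blood cells, the same lists summed to 499 to 664 and to 954 to 1500. Such sums alone are therefore no measure of white blood cells. In GA3M2 the macrophage sum was 2383 and 2966 against 1719 and 1407 in the proximal colon, and 2348 and 2403 against 2775 and 1640 in the distal colon, where the groups overlapped. Of that list Cd14, a receptor for bacterial lipopolysaccharide, was at 646 to 2417 over the libraries of the GA3M2 tables. Ptprc was at 0.914 and 0 in GWTM2 and 5.03 and 12.9 in GA3M2 of the proximal colon, and at 6.72 and 6.56 against 9.79 and 14.4 in the distal colon. Lyz2, the lysozyme of macrophages and neutrophils, was the 1 macrophage gene called in goblet cells, with no read in GWTM2 and 305 and 495 in GA3M2 of the proximal colon (limma adjusted p = 0.0182). Distal Lyz2 was at 5.76 and 0 against 362 and 401 (132-fold, limma adjusted p = 0.187). Chil3 had no read in any control of these tables and was at 35.2 and 111 in GA3M2 of the proximal (limma adjusted p = 0.0956) and 89.1 and 88.2 in the distal colon (limma adjusted p = 0.121). C1qc, a complement subunit made by macrophages, was at 0 and 0 against 29.2 and 37.8 in the proximal and 0.96 and 0 against 14.7 and 15.3 in the distal colon. Laptm5, Tyrobp and Itgb2, all of white blood cells, were also higher in each GA3M2 library than in each control, at 6.46 to 22.1 against 0 to 1.83. These genes, a part of their lists, were thus higher in GA3M2 like Ly6g, and their part in the values of Ly6g was not tested. In GS4M2, where Ly6g was also higher, the leukocyte sum was 357 and 416 against 332 and 328 in the proximal colon. In the distal colon it was 495 and 445, below the controls at 599 and 527. The macrophage sum of GS4M2 overlapped its controls in the proximal (1343 and 1509 against 1614 and 1330) and distal colon (1786 and 1876 against 2884 and 1696). Set against Epcam, Ly6g made 8.47 to 51.8 reads per 1000 Epcam reads in GA3M2, 3.29 to 17.5 in GS4M2 and 0.217 to 4.73 in GWTM2. S100a8 made at most 1.16 per 1000 in any goblet library. In the stromal knockouts Ly6g made 39.8 to 301 and S100a8 5.69 to 452 per 1000 Epcam reads. For S100a8 the stromal knockouts lay above all goblet libraries, while for Ly6g the lower GA3T values overlapped those of GA3M2. The stromal controls held 0 to 33.3 of Ly6g and 4.59 to 127 of S100a8 per 1000 Epcam reads. For each read of S100a8 there were 0.299 to 2.75 reads of Ly6g in GS4T, 1.56 to 9.21 in GA3T and 22.4 to 153 in GA3M2 goblet cells. Cd177 made 42.1 to 245 reads per 1000 Epcam reads in the stromal knockouts and 439 to 1673 in goblet cells.

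Organoids have a row for Ly6g and Cd177 and for no other member. The 18 organoid labels stand for 16 distinct libraries, because Control-12h 2 and Control-72h 1 hold equal reads for 99.98% of genes, as do Control-12h 4 and Control-72h 4. The time of these controls is therefore in doubt, and 12 and 72 hours are not compared. Both cytokines of a time were also set against the same controls. Epithelial cultures without added stroma read Ly6g at 2008 to 2862 in controls, while Ptprc was at 0 to 9.45 in all organoid libraries.

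At 12 hours limma called 0 members with IL-1, beside 0.0542% of all genes called higher, and 0 with IL-17A, beside 0.0385%. Unadjusted p was under 0.05 for 565 and 667 genes. Ly6g was at 2726, 2122 and 2355 in controls and 3103, 3373 and 3549 with IL-1 (log2 fold change 0.48 ± 0.12 SE, limma adjusted p = 0.772), and at 3406, 3269 and 3444 with IL-17A (0.43 ± 0.12, limma adjusted p = 0.774). Cd177 was at 4166, 2925 and 7025 in controls and 23772, 20427 and 20301 with IL-1 (2.28 ± 0.30, limma adjusted p = 0.111). With IL-17A it was at 29395, 31723 and 32140, against 4373, 3065 and 7356 in the controls of that table (2.75 ± 0.30, limma adjusted p = 0.0523). All treated libraries lay above all controls for both genes, and none of these differences passed the threshold. With each cytokine the libraries numbered 3 and 4 were nearly identical, so the SE counts near repeats as replicates. With these averaged the log2 fold changes of Ly6g and Cd177 were 0.46 and 2.32 with IL-1 and 0.43 and 2.73 with IL-17A. Again limma called neither gene. DESeq2 called Cd177 with either cytokine.

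At 72 hours limma called both members with IL-1, beside 10.9% of all genes called higher, and both with IL-17A, beside 5.02%. Ly6g was at 2012, 2245 and 2259 in controls and rose to 13521, 8180 and 13053 with IL-1 (5.33-fold, log2 fold change 2.38 ± 0.21 SE, limma adjusted p = 0.00205). Cd177 rose from 2773, 6837 and 6740 to 38249, 27345 and 17407 (5.08-fold, 2.38 ± 0.41, limma adjusted p = 0.00525). With IL-17A Ly6g rose to 10690, 3990 and 15935 (4.71-fold, 2.02 ± 0.47, limma adjusted p = 0.0454) and Cd177 to 41223, 42531 and 33119 (7.17-fold, 2.95 ± 0.36, limma adjusted p = 0.0225). Every treated library was above every control. Without the 2 controls listed at both times 1 control is left, assumed to vary like the treated libraries, and no member was called. The adjusted p with IL-1 was then 0.0625 for Ly6g and 0.0842 for Cd177, and with IL-17A 0.458 and 0.406, at log2 fold changes of 2.33, 1.94, 1.98 and 2.51. The control left was Control-72h 2, which is nearly identical to Control-72h 4, 1 of the 2 left out. This setting therefore cannot settle the doubt about the time of the controls. The calls with IL-17A were also lost when the nearly identical Control-72h 2 and Control-72h 4 were averaged, and with the replicate number as a block (Ly6g 1.63, limma adjusted p = 0.211, and Cd177 3.27, limma adjusted p = 0.131). With IL-17A Ly6g was not called without Control-72h 1, Control-72h 2, Control-72h 4, IL17A-72h 1 or IL17A-72h 3, and Cd177 not without Control-72h 2, Control-72h 4 or IL17A-72h 1.

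Other genes of the neutrophil lists rose in the organoids too. At 72 hours Ltf, Lcn2 and Pglyrp1, all of the secondary granule list, were called with IL-1 and with IL-17A, and Cxcl1 and Cxcl2 with both. Lcn2 was at 0.887, 0 and 0 in controls and 125, 114 and 86.7 with IL-1 (limma adjusted p = 0.00198). Per 1000 Epcam reads, organoids held 102 to 141 reads of Ly6g in controls, 305 to 359 with IL-1 at 72 hours and 152 to 380 with IL-17A at 72 hours. The range in controls and that with IL-17A overlap the 39.8 to 301 of the stromal knockouts, and that with IL-1 lies above it. S100a8, S100a9, Csf3r, Cxcr2, Retnlg, Ngp, Mmp8 and Mmp9 have no row in organoids.

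**Figure D5:**
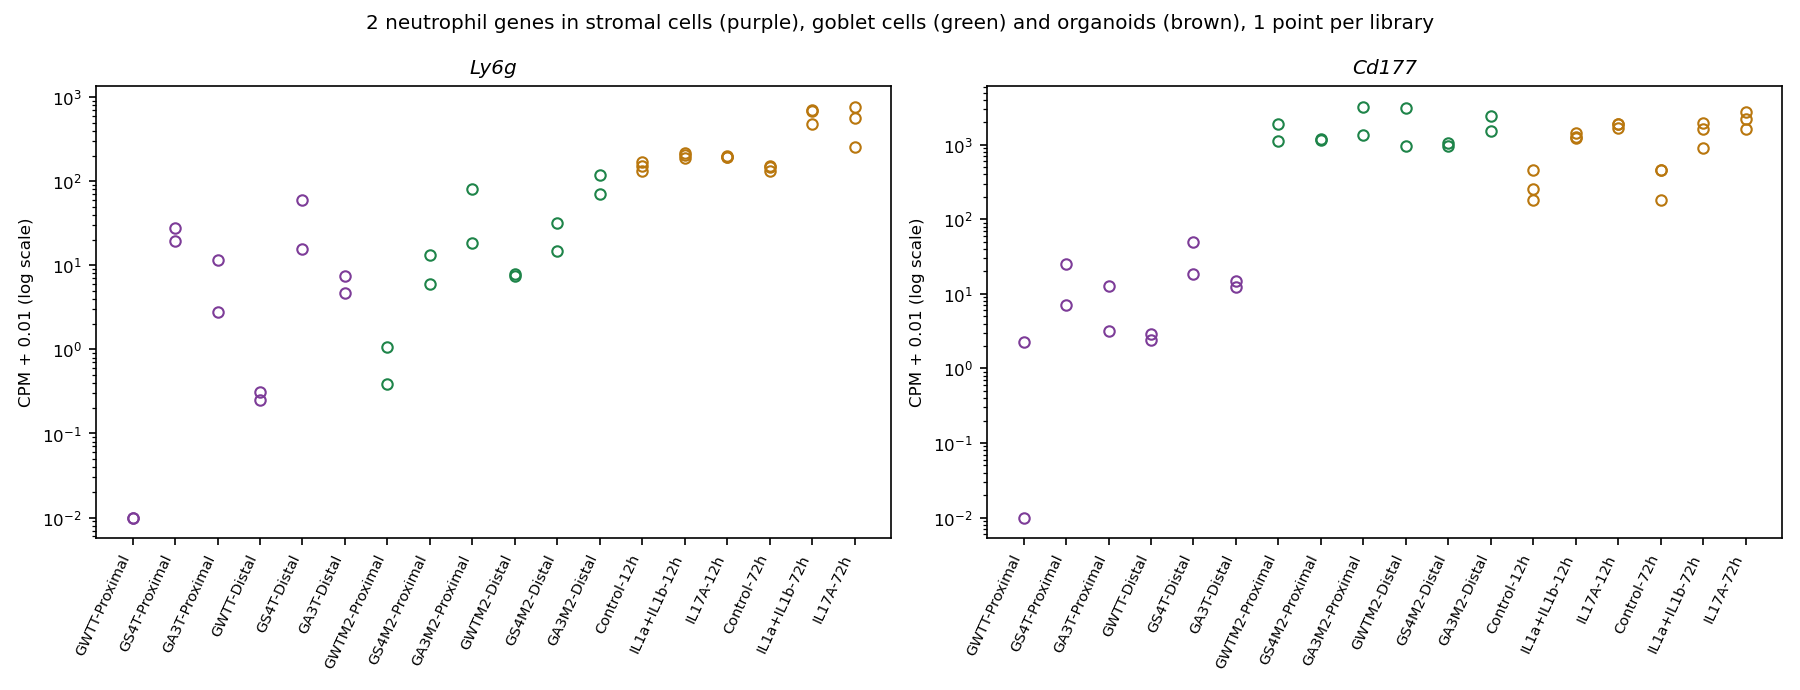
CPM plus 0.01 (log scale) of Ly6g (left) and Cd177 (right) in every group, 1 open circle per library, with stromal cells purple, goblet cells green and organoids brown; 2 control libraries appear at both 12 and 72 hours. Ly6g runs from 0 in GWTT-Proximal to 774 CPM in organoids with IL-17A at 72 hours, and Cd177 is at 962 to 3252 in goblet cells but at most 49.4 in stromal cells.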

How the data were processed

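RNA sequencing of 42 labelled libraries in 12 tables was used. The authors mapped reads to mm10 with STAR 2.5.3, keeping unique hits, and normalised gene counts with DESeq2 1.28.1. The deposited values are a normalised signal, gene counts divided by 1 size factor per library within a table. The counting program, annotation and strand setting are not given in the sources used here. Each value was a whole multiple of a step of 0.752 to 1.26 (100% within a tolerance of 0.1), which returned whole reads for depth, edgeR 4.0.16 and DESeq2 1.42.0. A count of 0 allows up to 3 reads. Intervals are 95% and cover counting error only.

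After log2(value + 1) and a filter on a mean of 10, limma 3.58.1 (trend) was fitted in R 4.3.3 within each table, with Benjamini-Hochberg adjustment over all genes tested. Fold changes on this scale understate those of low genes. The fits were tested on simulated data. Rows without a gene name, 4 in each of 2 goblet tables with up to 28.2% of the values, were left out. Gene names turned into dates, 16 to 19 per table, were kept in the tests and not named. Columns not mapped to a sample numbered 0. Groups came from the sample labels. Gene positions are from GENCODE M21 and promoters from RefSeq.

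The members and the gene lists were chosen with earlier results of these data known. Named were all members, the targeted genes and Gli1, genes of the lists, Il1a, Il1b and Il17a, and the 10 genes nearest to the summed members among those whose mean was 1 CPM or more, of which 1 is not reported here. Alternatives were a pseudocount of 10, no filter, edgeR, DESeq2, the replicate number as a block and each library left out. Near-identical organoid libraries averaged, controls listed at both times left out, and sums without Mmp9, Ly6g and Cd177, were added after seeing the data.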

Additional observations from a re-analysis of the deposited data

How the results depend on the processing

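Members called, by table, moved as follows. DESeq2 called 5 members in each GA3T table and 1 in each goblet table, each against 0 by limma, and 1 in each organoid table at 12 h. In GS4T distal 10 members and with IL-1 at 72 h 2 members were called under each setting but one, the 2 controls listed at both times left out, which gave 0 with IL-1 at 72 h, 0 with IL-17A at 72 h and 1 with IL-17A at 12 h. A pseudocount of 10 gave 1 with IL-17A at 12 h. Averaging near-identical libraries gave 0 with IL-17A at 72 h. With 1 library left out the members called ranged from 0 to 9 in GS4T proximal (6 with all libraries), from 0 to 1 in GA3T proximal, 0 to 2 in GA3T distal, 0 to 1 in GS4M2 and in GA3M2 proximal, 0 to 3 in GA3M2 distal, 0 to 1 at 12 h and 0 to 2 with IL-17A at 72 h. Leaving a library out of a group of 2 leaves a lone sample, assumed to vary like the others. The summed members ranged from 3.06 to 4.76 on the log2 scale in GS4T proximal, 4.62 to 4.93 in GS4T distal, 2.39 to 4.19 in GA3T proximal and 2.31 to 3.02 in GA3T distal, and were 4.48 in GS4T distal without S100a8 and S100a9, 5.44 there without Mmp9, Ly6g and Cd177, and 1.77 in GA3T distal without the same 3. No summed value changed sign. Cd177, not called in goblet cells, did so: from -0.34 to 0.04 in GS4M2 proximal without GWTM2-Proximal 1, from 0.56 to -0.04 in GA3M2 proximal without GA3M2-Proximal 1, and from 0.13 to -0.05 by edgeR and by DESeq2, -0.25 without GA3M2-Distal 1 and -0.70 without GWTM2-Distal 2 in GA3M2 distal. The cause was not tested.

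Same-numbered libraries carry no label of a shared mouse or day, and each sorted table has 2 pairs. Their deviations correlated at -0.06 to 0.30 in sorted cells, at 0.62 to 0.64 in organoids at 12 h and at -0.19 to 0.20 at 72 h. With the replicate number as a block the members called were 8 in GS4T proximal, 1 in each GA3T stromal table, 1 in GS4M2 proximal, 1 in each GA3M2 table, 1 with each cytokine at 12 h and 0 with IL-17A at 72 h, and all genes called were 253 in GA3T proximal, 62 in GA3T distal, 260 in GS4M2 proximal, 699 in GA3M2 proximal, 4 in GA3M2 distal, 100 and 120 with IL-1 and IL-17A at 12 h, and 1513 and 4 at 72 h.

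Counts over all genes depended on the tool in the GA3T tables. In GA3T proximal limma called 55 genes, 53 of them higher, edgeR called 0, a pseudocount of 10 gave 87 and DESeq2 called 969, 676 of them higher. In GA3T distal limma called 0, a pseudocount of 10 gave 11 and DESeq2 called 776. The genes that passed the filter numbered 15346 in GA3T proximal and 15414 in GA3T distal. DESeq2 called 270, 147, 431 and 240 in GS4M2 proximal, GS4M2 distal, GA3M2 proximal and GA3M2 distal (limma 43, 0, 12 and 0), 43 and 51 with IL-1 and IL-17A at 12 h (limma 7 and 5), and 2311 with IL-17A at 72 h (limma 1038). Depth limited the folds against controls without a read, which are lower bounds.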
